A study of Mus musculus with 4 samples.

Results

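The replication-dependent histone genes were examined in mouse articular cartilage, as the rows of the expression table whose symbol begins with Hist1h, Hist2h, Hist3h or Hist4h. The table held 69 such genes of 24532 in all, namely 6 for the linker histone H1, 19 for H2A, 19 for H2B, 12 for H3 and 13 for H4. By symbol 55 were Hist1 genes on chromosome 13, in 1 cluster but for the pseudogene Hist1h2al at chr13:51202727-51203065 (GRCm38), with 10 in Hist2 on chromosome 3, 3 in Hist3 on chromosome 11 and 1, Hist4h4, on chromosome 6. A level above 0 was listed in at least 1 library for 67 of them, while Hist1h2aa and Hist1h4m were at 0 in all 4.

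The study compared cartilage repair in young and adult mice. All mice were wild type C57BL/6, and the methods give them as male. There was 1 library for each age and state, sham or injured, made from a pool of 10 injured or 5 uninjured mice, and injured tissue was taken on day 3. Young mice were 3 weeks old in every source. Adult mice were 10 weeks old in the methods, 12 in the sample titles and 14 in the sample characteristics. The methods describe a full-thickness cartilage injury (FTCI), a needle wound in the groove under the kneecap, whereas the titles name DMM surgery. The adult sham pool is also labelled with days 3 to 14. With 1 pool per group there were no replicates, so no spread between mice and no p-value can be given for any difference below.

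Histones are the proteins around which DNA is wound: H2A, H2B, H3 and H4 form the core of the nucleosome, and H1 binds the DNA that enters and leaves it. Cells make most of their histones in S phase, while the DNA is copied, from clustered genes that are mostly without introns. These messages are the only known mRNAs of animals that generally end in a short stem-loop, bound by the stem-loop binding protein SLBP, in place of a poly-A tail. The libraries here were made from RNA captured on poly-T beads, so a histone message without a tail was not expected to be captured well, and the levels below are those of the captured fraction. Some of these genes are also known to give tailed messages in resting or differentiated cells.

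The stem-loop is shown for genes on which the results turn, since it marks the usual end of these messages. It was searched for on the transcript strand of the GENCODE annotation (GRCm38, the build of the files) as GGNNCTTNTNAGNNCC, with N for any base. The motif is in capitals within 5 bases of flank on each side, all in the 3′ UTR of a single exon.

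Hist1h1c, chr13:23739512-23739527, plus strand: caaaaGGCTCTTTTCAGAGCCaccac
Hist2h2aa1, chr3:96246032-96246047, plus strand: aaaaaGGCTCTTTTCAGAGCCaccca
Hist2h2aa2, chr3:96239784-96239799, minus strand: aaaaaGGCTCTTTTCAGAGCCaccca
Hist3h2a, chr11:58955172-58955187, plus strand: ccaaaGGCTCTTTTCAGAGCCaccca
Hist1h2bg, chr13:23571843-23571858, plus strand: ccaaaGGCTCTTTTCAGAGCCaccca
Hist1h3c, chr13:23745047-23745062, minus strand: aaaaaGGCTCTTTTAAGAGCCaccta
Hist1h4h, chr13:23531458-23531473, plus strand: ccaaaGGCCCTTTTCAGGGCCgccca
Hist1h4i, chr13:22040966-22040981, minus strand: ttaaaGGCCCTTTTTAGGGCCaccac

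For each member only the longest matching annotated transcript was searched. The motif was present in 45 of these 69 transcripts, against 0.413% of 21810 other protein-coding genes. It began 21 to 58 bases after the stop codon, with a median of 31. The form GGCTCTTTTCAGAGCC was found in 25 members, of types H1, H2A, H2B and H3, and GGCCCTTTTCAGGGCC in 7, all H4. Of the 24 members without a match, 17 have an annotated end within 100 bases of the stop codon and 2 have no annotated coding sequence, so for these the absence says little. The other 5 were H2B genes annotated more than 100 bases past the stop codon, namely Hist1h2bc, Hist1h2bp, Hist1h2bq, Hist1h2br and Hist2h2be. All of them but Hist2h2be were searched as transcripts of 2 exons. Whether a shorter transcript of these genes holds the motif was not examined. Of the 45 with a stem-loop, 22 are annotated to end within 100 bases of it and 23 to run further.

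Levels were given as FPKM, the fragments assigned to a gene per kilobase of its length, scaled to the mapped fragments of the library, so that the values allow for gene length and depth but not for how well a message is captured or told from its copies. Where 4 values follow each other, they are those of the young sham and young injured libraries and then of the adult sham and adult injured ones. The 69 members summed to 240.0, 223, 268 and 265 FPKM. The total as deposited thus differed little between libraries. Without Hist2h2aa1 and Hist2h2aa2, copies described below, the sums were 181, 191, 236 and 209 FPKM, with adult sham cartilage the highest. The total was carried by few genes: the median of the members' mean levels was 0.365 FPKM, and 7 members with a mean of at least 5 FPKM held 85.1%, 78.1%, 86.5% and 88.1% of the sum in the same order. In a pool of tissue, fewer cells of a type and less RNA per cell cannot be told apart.

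**Figure D1:**
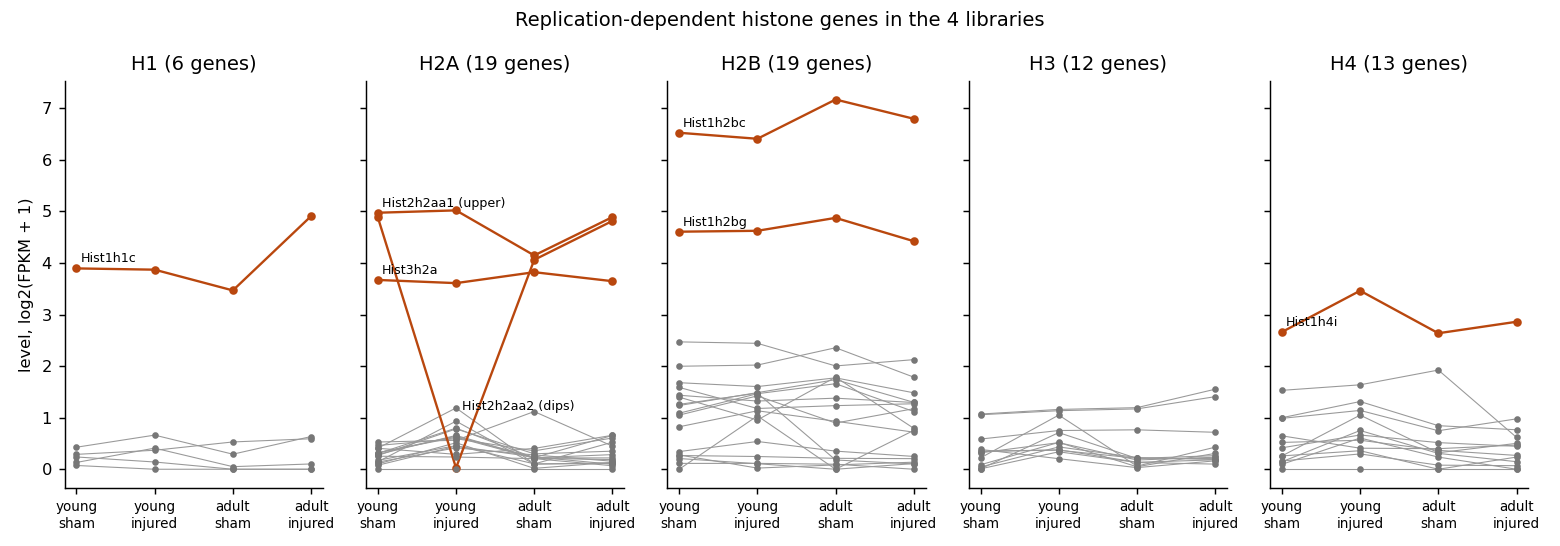
Level of each of the 69 members in the 4 libraries, as log2(FPKM + 1), in 1 panel per histone type; each line joins the values of 1 gene, and the 7 genes of mean 5 FPKM or more are in red with their names. Hist1h2bc stands highest in every library, H3 has no gene of mean 5 FPKM or more, and Hist2h2aa2 is near 0 in young injured cartilage only.

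The H2B gene Hist1h2bc was the highest member in every library, at 91.0, 83.9, 143 and 110 FPKM. It is 1 of the 5 members annotated past the stop codon with no stem-loop in the transcript searched, which has 2 exons. A second H2B gene, Hist1h2bg, was at 23.3, 23.6, 28.3 and 20.4 FPKM. For both genes the adult sham library was the highest. The linker histone gene Hist1h1c was at 13.9, 13.6, 10.1 and 29.0 FPKM, so that adult injured cartilage stood above the other libraries. Hist3h2a, an H2A gene of the small Hist3 cluster, varied least among the 7, at 11.7, 11.2, 13.1 and 11.5 FPKM. Hist1h4i, the highest H4 gene, was at 5.32, 10.02, 5.22 and 6.26 FPKM, with young injured cartilage the highest.

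The remaining members of this group were Hist2h2aa1 and Hist2h2aa2, a pair of H2A copies transcribed away from each other. Every 31-base word of the Hist2h2aa2 transcript also occurred in another gene, as did 89.7% of those of Hist2h2aa1. Hist2h2aa1 was at 30.4, 31.4, 16.7 and 28.6 FPKM, and Hist2h2aa2 at 28.6, 0.018, 15.7 and 27.1 FPKM. The copies were thus at nearly the same level in 3 libraries, and in young injured cartilage Hist2h2aa2 was listed at about 0.3 fragments while Hist2h2aa1 kept its level. How fragments that match both copies were assigned is not given in the sources used here, so neither copy has a reliable level of its own. Their sum was 59.0, 31.4, 32.4 and 55.8 FPKM. Another pair of copies differed from this: the H2B gene Hist1h2bq was at 1.64, 0.939, 2.45 and 0.733 FPKM and Hist1h2br at 0, 1.05, 0 and 0.686 FPKM, so Hist1h2br was above 0 only in the libraries where Hist1h2bq was lower. Their sum was 1.64, 1.99, 2.45 and 1.42 FPKM. In all, 41 of the 69 members shared 50% or more of their words with another gene, which is why sums by type are given.

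The 62 members with a mean under 5 FPKM summed to 35.8, 48.8, 36.2 and 31.6 FPKM, highest in young injured cartilage as deposited. This order depended on the scaling. After quantile normalization the log2 ratio of the sum to young sham cartilage was 0.21 for young injured and 0.56 for adult sham cartilage, which was then highest. Median-of-ratios scaling gave 0.46 and 0.39. Most of the 62 were close to the limit of detection. The steps between low values put the libraries at about 2.62e+07, 2.62e+07, 3.08e+07 and 2.56e+07 fragments, if 1 step is 1 fragment, and 1 fragment on a 500-base transcript was then worth 0.0650 to 0.0780 FPKM. Only 13, 19, 12 and 10 of the 62 reached 1 FPKM. The H2B genes were the most abundant of them, led by Hist1h2be (4.54, 4.43, 3.01 and 3.36 FPKM) and Hist1h2bh (2.99, 3.06, 4.12 and 2.45 FPKM). The low members, which are most of the family, therefore rest on few fragments each, and they were read mainly as sums.

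By type, H2B took the largest share of the sum in each library, with 136, 131, 193 and 148 FPKM. H2A followed with 74.0, 50.8, 49.0 and 71.1 FPKM, most of it from the Hist2h2aa1 and Hist2h2aa2 pair. The H1 sum was 14.8, 14.9, 10.8 and 30.1 FPKM and the H4 sum 11.2, 19.0, 11.2 and 10.2 FPKM. H3 was lowest, with 4.05, 7.04, 4.15 and 5.80 FPKM from 12 genes. Core histones are assembled in equal numbers in the nucleosome, and the captured messages of the 4 core types were far from equal.

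**Figure D2:**
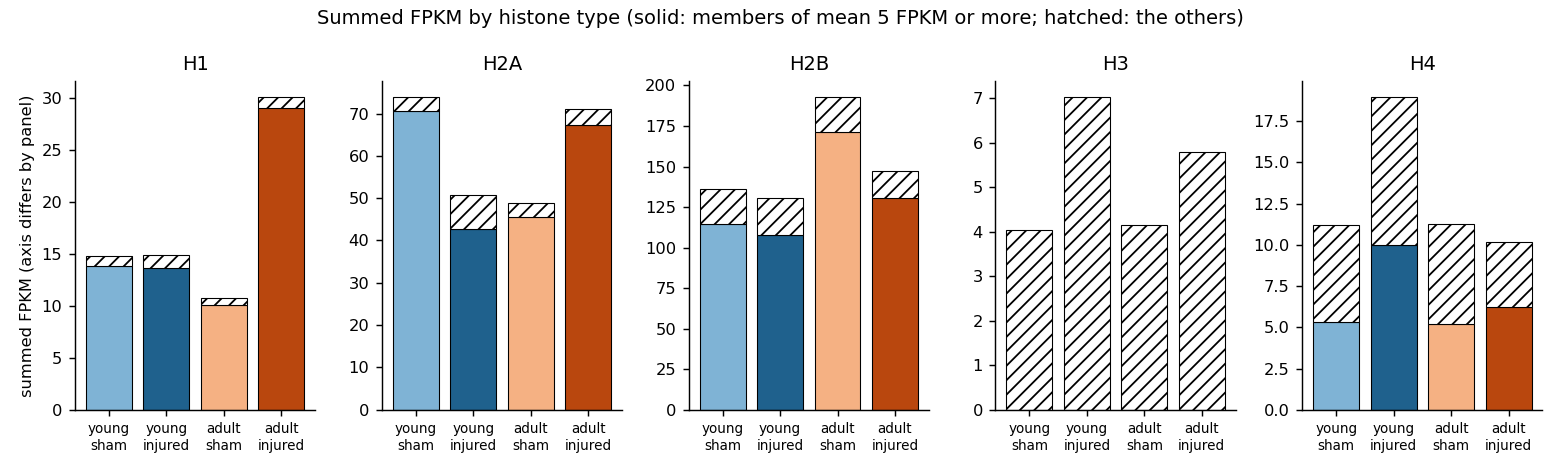
Summed FPKM of the members of each histone type in the 4 libraries, with an axis of its own for each panel that starts at 0; solid bars are members of mean 5 FPKM or more and hatched bars the other members. As deposited, the H1 sum is highest in adult injured cartilage (30.1 FPKM), and the H3 and H4 sums in young injured cartilage (7.04 and 19.0 FPKM). After quantile normalization the H3 sum was highest in adult sham cartilage, with a log2 ratio to young sham of 0.54 against 0.42 for young injured cartilage.

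Series-wide values that bear on these levels were as follows. The chondrocyte genes, of which 11 of 12 listed were in the table, summed to between 10946 and 15988 FPKM, with Col2a1, Comp and Col9a3 the most abundant, and none was at 0, as the label of cartilage has it. They did not move alike: 8 of the 11 were at least 2-fold lower in adult than in young sham cartilage, where 10.6% of all genes were. Col2a1 was at 9349 FPKM in young and 3173 in adult sham cartilage. Only 1, Comp, was at least 2-fold higher, from 1324 to 7203 FPKM, where 2.66% of all genes were. Erythroid genes were also high, at 9752, 18505, 6969 and 3067 FPKM. The adult sham library stood apart: 8390 genes were at 0 against 7457 to 7714 elsewhere, and Neat1, a nuclear RNA whose long form ends without a tail, was at 0.828 FPKM against 234, 257 and 518. Comparisons that use adult sham cartilage are to be read with this in view, and young injured against young sham and adult injured against young injured cartilage do not use it. The 4 comparisons share libraries in pairs and are not independent.

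Injury in young cartilage was compared first. Of the 67 members above 0, 49 were higher and 18 lower after injury, where 47.4% of all genes above 0 were higher and 49.9% lower. The excess of higher members was in the low ones: 46 of the 62 were higher and 14 lower, against 48% higher and 47.3% lower among all genes with a mean under 5 FPKM. The median log2 ratio of FPKM + 1 over the members was 0.15, with 0 over all genes. Over the members above 0 that share under 50% of their words with another gene it was 0.02, and over the 28 that reached 1 FPKM in a library it was 0.08. A difference of 2-fold or more on this scale was reached by 1 member upward, Hist1h2br, where 4.57% of all genes passed, and by 1 downward, Hist2h2aa2, where 1.27% passed. Both belong to the copy pairs described above. Rescaling, by TPM, median of ratios or quantiles, left 39 to 49 of the members higher, beside 38.6% to 49.7% of all genes.

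The sums by type did not move alike. The H4 sum was 1.69-fold and the H3 sum 1.74-fold that of young sham cartilage. Log2 ratios of sums, here and below, were computed after adding 1 FPKM to each sum, which makes those of small sums smaller than the folds, and were 0.71 for H4 and 0.67 for H3. Of the 12 measured H4 genes 11 were higher, led by Hist1h4i (5.32 to 10.02 FPKM), and without it the other H4 genes went from 5.89 to 8.97 FPKM. Of the 12 H3 genes 11 were higher. The H1 sum hardly differed, at 14.8 and 14.9 FPKM, and the sign of its log2 ratio of 0.01 turned after TPM rescaling and quantile normalization. The H2B sum had a log2 ratio of -0.06, which became 0.06 without Hist1h2bc, with 10 genes higher and 9 lower. Among the H2B genes of mean 1 FPKM or more, Hist1h2bk went from 1.12 to 1.76 FPKM and Hist2h2be from 2.003 to 1.26 FPKM.

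The H3 difference lay in the Hist1 cluster, where the 9 genes summed to 1.37 FPKM in young sham and 3.93 FPKM in young injured cartilage, which is 2.88-fold, with 8 of 9 higher. The 3 Hist2 genes went from 2.68 to 3.11 FPKM. Hist1h3c was at 0.165 and 1.07 FPKM, or about 2.1 and 13.5 fragments. It is named here after its values were seen.

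For H2A the sum fell by 0.53 on the log2 scale, and this sign turned without the copy pair. Without Hist2h2aa1 and Hist2h2aa2 the H2A sum was 15.0 FPKM in young sham and 19.4 in young injured cartilage, a log2 ratio of 0.35. Among the H2A genes of mean under 5 FPKM, 13 of the 15 above 0 were higher, and their sum went from 3.28 to 8.19 FPKM, which is 2.50-fold. Hist1h2ag was at 0.105 and 0.908 FPKM, about 1.3 and 11.2 fragments, and Hist1h2af at 0.328 and 1.28 FPKM. Because such values are small beside the added 1 FPKM, the ratio of FPKM + 1 understates them. With 0.1 FPKM added instead, 19 members were at least 2-fold higher, where 9.99% of all genes passed, and 2 were lower, where 4.22% passed. The 19 comprised 9 H2A, 5 H3, 3 H4, 1 H1 and 1 H2B genes, so that H2B, the most abundant type, had the fewest together with H1.

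**Figure D3:**
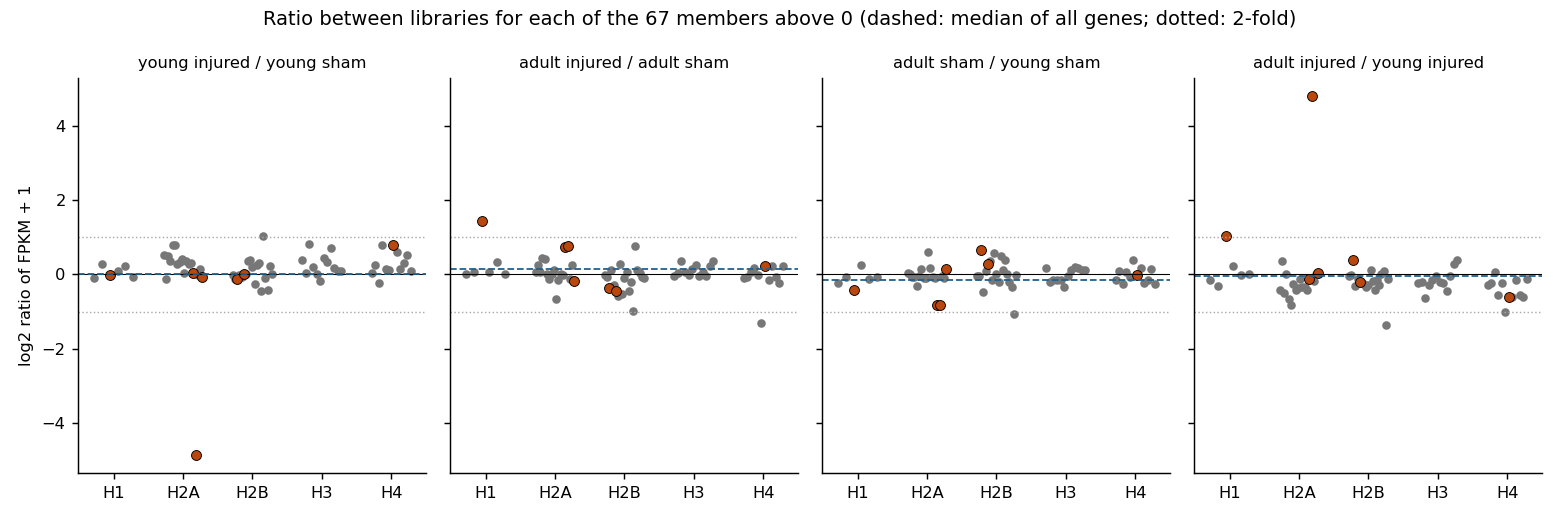
Log2 ratio of FPKM + 1 for each of the 67 members above 0, by type, in the 4 comparisons; red points are members of mean 5 FPKM or more, the dashed line is the median of all genes above 0 and the dotted lines mark 2-fold. In young injury most H2A, H3 and H4 points lie above the line, and in adult injured against young injured cartilage most lie below it.

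Injury in adult cartilage was compared next. Of the members, 35 were higher and 30 lower after injury, where 67.2% of all genes were higher and 27.6% lower. Of the 62 low members 31 were higher and 27 lower, against 64.2% and 26.5% of all genes with a mean under 5 FPKM. Their median log2 ratio was 0.01, beside 0.14 over all genes, and its sign turned under median-of-ratios scaling and quantile normalization, which left 27 and 16 members higher, beside 51.5% and 44.5% of all genes. Only 1 member, Hist1h1c, was at least 2-fold higher, where 6.9% of all genes passed, and 1, Hist1h4h, was at least 2-fold lower, where 1.46% passed. With 0.1 FPKM added the counts were 8 higher and 4 lower, where 15.9% and 3.61% of all genes passed.

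Hist1h1c, which codes for a linker histone of many somatic tissues, went from 10.1 to 29.0 FPKM, a log2 ratio of 1.44 and about 224 to 539 fragments. Its adult injured level was above the other 3 libraries, including young sham at 13.9 FPKM. The H1 sum was accordingly 2.80-fold higher, with a log2 ratio of 1.40, whereas the other 5 H1 genes went from 0.703 to 1.13 FPKM, which is 1.61-fold. Hist1h1e, the next H1 gene, was at 0.224 and 0.552 FPKM.

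Hist1h4h went the other way, from 2.79 to 0.534 FPKM, or about 37.4 to 6.0 fragments, and a log2 ratio of -1.31. It was below its level in both young libraries, at 1.89 and 2.11 FPKM. Apart from Hist1h4i, the H4 genes summed to 6.02 FPKM before and 3.90 FPKM after injury, with 7 lower and 4 higher. This difference rested on Hist1h4h, since the other 11 genes summed to 3.23 and 3.37 FPKM. In young injury 10 of the 12 genes other than Hist1h4i were higher and 1 lower. Whether injury acted differently at the ages was not tested, since each age had 1 library per state.

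Most H2B genes were lower in adult injured cartilage, 13 of 19, and the H2B sum had a log2 ratio of -0.39. Hist1h2bc was at 143 and 110 FPKM, Hist1h2bg at 28.3 and 20.4, Hist1h2bh at 4.12 and 2.45 and Hist1h2bk at 2.16 and 1.17. Hist1h2bn was at 2.33 and 1.46 FPKM. In contrast, Hist1h2bj was higher, at 0.861 and 1.26 FPKM. The H2A sum had a log2 ratio of 0.53, but without the copy pair it was 16.6 and 15.3 FPKM, a log2 ratio of -0.11. The H3 sum went from 4.15 to 5.80 FPKM, a log2 ratio of 0.40 that became -0.15 after quantile normalization. Its Hist1 genes went from 0.911 to 1.58 FPKM, which is 1.73-fold, with 6 of 9 higher, and the near-identical Hist2h3c1 and Hist2h3c2 together from 2.54 to 3.58 FPKM.

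Adult sham was then compared with young sham cartilage. The members summed to 268 and 240.0 FPKM, a log2 ratio of 0.16 that became -0.25 without Hist1h2bc, with 26 higher and 40 lower where 29.7% of all genes were higher and 65.6% lower. Their median log2 ratio was -0.05, beside -0.15 over all genes, and median-of-ratios scaling and quantile normalization put 35 and 45 members higher, beside 45.1% and 47.5% of all genes. Of the 62 low members 23 were higher and 36 lower, against 28% and 63.7% of all genes with a mean under 5 FPKM. No member was at least 2-fold higher, where 2.66% of all genes passed, and 1 was at least 2-fold lower, where 10.6% passed. That member was Hist3h2ba, an H2B gene of the Hist3 cluster, at 1.39, 1.78, 0.132 and 0.0744 FPKM. The levels of both adult libraries were below those of both young ones, at about 16.8, 21.6, 1.9 and 0.9 fragments. With 0.1 FPKM added 3 members were higher and 6 lower, where 5.72% and 21.1% of all genes passed.

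Hist3h2a, a neighbour of Hist3h2ba in the same cluster, did not share this split, as its levels of 11.7 and 11.2 FPKM in young and 13.1 and 11.5 FPKM in adult cartilage show. The third gene of the cluster, Hist3h2bb-ps, was at 0.0817, 0.082, 0.0699 and 0 FPKM, about 1 fragment or none in each library. Hist4h4 was at 0.196, 0.283, 0 and 0.178 FPKM. Among the abundant members Hist1h2bc had a log2 ratio of 0.64 and the H2A copies -0.83 and -0.82. The H3 and H4 sums had log2 ratios of 0.03 and 0.00, which quantile normalization moved to 0.54 and 0.48 and median-of-ratios scaling to 0.34 and 0.36, with 4.05 and 4.15 FPKM for H3 and 11.2 FPKM in both libraries for H4.

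Finally, injured cartilage was compared between the ages. Of the members, 53 were lower and 13 higher in the adult library, where 56.5% of all genes were lower and 40.6% higher. Among the 62 low members 50 were lower and 9 higher, against 55.4% lower and 39.4% higher among all genes with a mean under 5 FPKM. The median log2 ratio was -0.21, and -0.12 over the members with under 50% shared words, beside -0.04 over all genes, and rescaling left 47 to 49 members lower and 17 to 19 higher, beside 46.5% to 52.7% of all genes higher. At least 2-fold differences were found for 2 members upward, Hist2h2aa2 and Hist1h1c, where 1.8% of all genes passed, and for 2 downward, Hist3h2ba and Hist1h4h, where 3.09% passed. With 0.1 FPKM added 3 were higher and 21 lower, where 4.64% and 8.27% passed.

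The Hist1 H3 and low H2A genes were nearly uniform in direction. All 9 Hist1 H3 genes were lower, with a sum of 1.58 FPKM in adult injured against 3.93 in young injured cartilage, which is 0.401-fold. Of the 15 low H2A genes above 0, 13 were lower, with sums of 3.77 and 8.19 FPKM, and the H4 sum was 10.2 against 19.0 FPKM, with 11 of 12 genes lower. The Hist2 H3 genes did not share this and summed to 4.23 against 3.11 FPKM. Since young injured cartilage enters both this comparison and that of young injury, a high value in that 1 library gives both patterns. Many of these genes also share words with other genes, from 27.6% in Hist1h3d to 94.2% in Hist1h3h among the Hist1 H3 genes. Fragments of 1 copy may be listed under another. Genes of like direction, here and in young injury, are therefore not independent counts.

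The genes that act on histone messages were examined next, from a list of 18 for 3′ end formation and turnover. Their sums were 230, 237, 160 and 191 FPKM. No gene differed by 2-fold with injury at either age, where 4.57% of all genes were at least 2-fold higher and 1.27% lower in young, and 6.9% and 1.46% in adult injury. In adult against young sham cartilage 17 of 18 were lower, 2 by 2-fold or more, where 65.6% and 10.6% of all genes were. Slbp, which binds the stem-loop, was at 27.9, 28.4, 11.3 and 17.2 FPKM, so it was lower in both adult libraries. Npat, the coactivator of histone gene transcription at the start of S phase, was at 3.999, 3.22, 1.51 and 1.94 FPKM. The most abundant genes of the list were Srrt (34.9, 35.4, 25.3 and 32.8 FPKM), Ncbp2 (28.3, 26.9, 14.5 and 21.7 FPKM), which belongs to the cap-binding complex, and Cpsf3 (23.1, 25.3, 17.0 and 19.5 FPKM), the nuclease that cuts the message.

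Variants listed as replication-independent, whose messages mostly have poly-A tails, summed to 762, 934, 564 and 720 FPKM over 12 genes. This was more than the 69 members together in each library. H3f3a and H3f3b, which both code for H3.3, were at 317, 323, 163 and 228 FPKM and at 151, 176, 152 and 188 FPKM, far above the H3 members. H2afz, for H2A.Z, was at 115, 222, 91.5 and 113 FPKM, highest in young injured cartilage. Cenpa, the centromeric H3, was at 9.13, 27.9, 2.76 and 9.69 FPKM and was the 1 variant at least 2-fold higher with injury at each age. Of 18 histone chaperones, none differed by 2-fold in young injury and 1 was at least 2-fold higher in adult injury, where 4.57% and 6.9% of all genes were at least 2-fold higher. The most abundant were Rbbp7 (105, 97.5, 61.9 and 63.2 FPKM), Nap1l1 (48.4, 47.7, 25.3 and 41.2 FPKM) and Nap1l4 (36.1, 37.2, 35.9 and 33.3 FPKM).

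S phase genes, with a list of 28, summed to 356, 480.0, 189 and 263 FPKM. All 28 were higher in young injury and 26 of 28 in adult injury, where 47.4% and 67.2% of all genes were, with median log2 ratios of 0.33 and 0.56. In adult against young sham cartilage 14 were at least 2-fold lower, where 10.6% of all genes were. Pcna, the sliding clamp of DNA replication, was at 75.4, 103, 48.9 and 62.2 FPKM, and Mcm7, of the replicative helicase, at 24.9, 34.8, 12.6 and 17.3 FPKM. Mcm6, of the same helicase, was at 20.1, 25.02, 32.3 and 27.5 FPKM, highest in adult sham cartilage. The 16 mitosis genes summed to 160.0, 355, 30.3 and 103 FPKM, and all 16 were at least 2-fold lower in adult than in young sham cartilage. Of these, Ube2c was at 19.5, 40.1, 2.89 and 14.6 FPKM, Top2a at 18.3, 36.0, 2.69 and 8.89, and Birc5 at 11.8, 35.8, 2.16 and 12.5. In the same comparison the histone total had a log2 ratio of 0.16, which became -0.25 without Hist1h2bc, and the sum of the low members one of 0.02. Median-of-ratios scaling gave 0.55 and 0.39 for these sums and quantile normalization 0.44 and 0.56. The sums of the S phase and mitosis genes, as deposited, had -0.91 and -2.36.

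**Figure D4:**
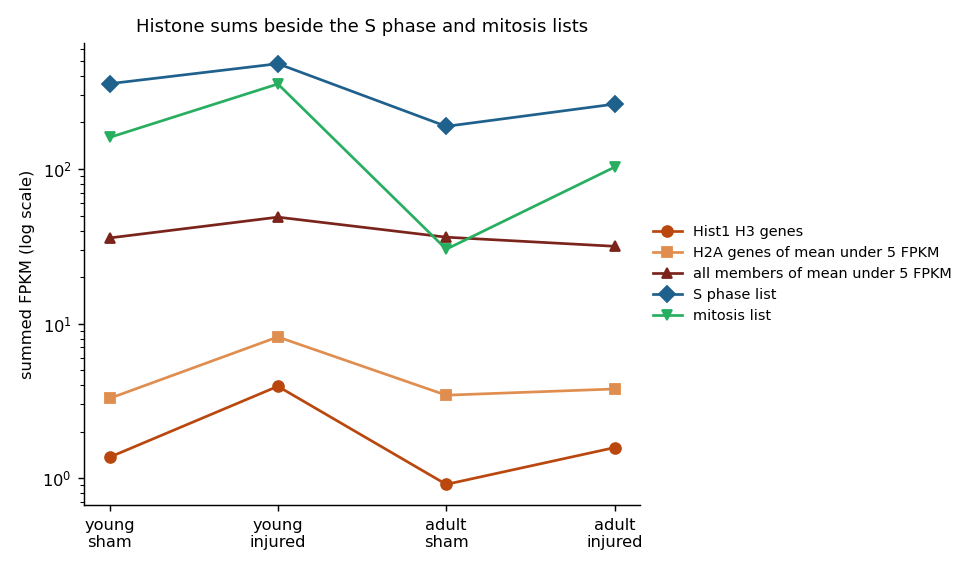
Summed FPKM on a log axis in the 4 libraries for the 9 Hist1 H3 genes, the H2A genes of mean under 5 FPKM, all members of mean under 5 FPKM, and the S phase and mitosis lists. As deposited, all 5 sums are highest in young injured cartilage, and the mitosis sum spans the widest range, from 30.3 to 355 FPKM. After quantile normalization the sum of all members of mean under 5 FPKM was highest in adult sham cartilage, and the other sums were not rescaled.

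Other RNAs that mostly lack a tail were set beside the histone values. The small nucleolar, Cajal body and nuclear RNAs, 124 by symbol, summed to 687, 699, 485 and 434 FPKM, with Snord104, Snord96a and Snora65 the most abundant. In young injury 54 were higher and 54 lower, 0 by 2-fold upward and 1 by 2-fold downward. The shares of all genes in young injury were 47.4% higher and 49.9% lower, and 4.57% and 1.27% at 2-fold or more. In adult injury 65 were higher and 42 lower, with 9 and 1 at 2-fold or more, where 67.2%, 27.6%, 6.9% and 1.46% of all genes were. In adult against young sham cartilage 22 were higher and 86 lower, 25 of them by 2-fold or more, where 29.7%, 65.6% and 10.6% of all genes were. In adult against young injured cartilage 23 were higher and 84 lower, with 1 and 15 at 2-fold or more, where 40.6%, 56.5%, 1.8% and 3.09% of all genes were. Malat1, a nuclear RNA, was at 264, 202, 78.6 and 208 FPKM, Rmrp at 4.10, 2.77, 0.678 and 5.67 and Rpph1 at 5.85, 4.78, 1.69 and 7.65. Malat1, Rmrp and Rpph1 were lowest in adult sham cartilage, as Neat1 was, and their part in the histone levels was not tested. Of the 7 abundant members, Hist1h1c was also lowest in adult sham cartilage, and Hist1h4i by little, at 5.22 against 5.32 FPKM in young sham cartilage. Hist2h2aa1 as listed was lowest there too, but its sum with its copy was lowest in young injured cartilage, at 31.4 against 32.4 FPKM. Hist1h2bc, Hist1h2bg and Hist3h2a were highest in adult sham cartilage. Hist2h2aa2 was lowest in young injured cartilage.

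Markers of other cells also moved with injury. The 12 macrophage genes summed to 193, 1938, 327 and 1672 FPKM, with Lyz2, C1qb and C1qc the most abundant, and all 12 were at least 2-fold higher in injury at both ages, where 4.57% and 6.9% of all genes were. The 10 genes of neutrophils and their precursors summed to 387, 1197, 434 and 2631 FPKM, with Lcn2, Ngp and Camp the most abundant, and 2 of the 10 at least 2-fold higher in injury at each age. Lcn2 alone was at 64.6, 639, 82.7 and 2117 FPKM. The erythroid sum was highest in young injured and lowest in adult injured cartilage, and of its most abundant genes Hba-a2 and Hba-a1 had this order, whereas Hbb-bs was highest in adult sham cartilage, at 106, 783, 2868 and 83.4 FPKM. The 11 B cell genes summed to 60.5, 85.8, 15.1 and 21.8 FPKM, with Cd79b, Cd79a and Vpreb3 leading, and the 6 megakaryocyte genes, led by Pf4, Gp1bb and Ppbp, to 19.6, 132, 24.8 and 78.6 FPKM. No marker of any list was at 0 in a library but 1 B cell gene in adult injured cartilage. As deposited, the macrophage, erythroid, B cell and megakaryocyte sums were, like the sum of the low histone members, highest in young injured cartilage. Quantile normalization made adult sham cartilage the highest for the low histone members, and the marker sums were not rescaled. The part of these cells in the histone values was not tested.

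Many H2A and H2B genes lie head to head, with their starts a short distance apart. There were 13 such pairs, with 172 to 305 bases between the starts. In 9 pairs the H2B gene was higher in every library than the H2A gene in any library, in 1 pair the reverse held, and 3 pairs overlapped. H2B members were the higher ones in general, with a median of their mean levels of 1.44 FPKM against 0.339 for H2A. Among the 9 was Hist1h2ba, at 0.153 to 0.203 FPKM, beside Hist1h2aa, at 0 in all 4 libraries. Another of the 9 held Hist1h2bq, of the copy pair described above. Hist1h2bc and Hist1h2ac start 250 bases apart, and their mean levels were 107 and 0.362 FPKM. Hist1h2bg and Hist1h2ae start 175 bases apart and had means of 23.9 and 0.384 FPKM. The exception was Hist3h2a, with a mean of 11.9 FPKM, beside the pseudogene Hist3h2bb-ps.

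**Figure D5:**
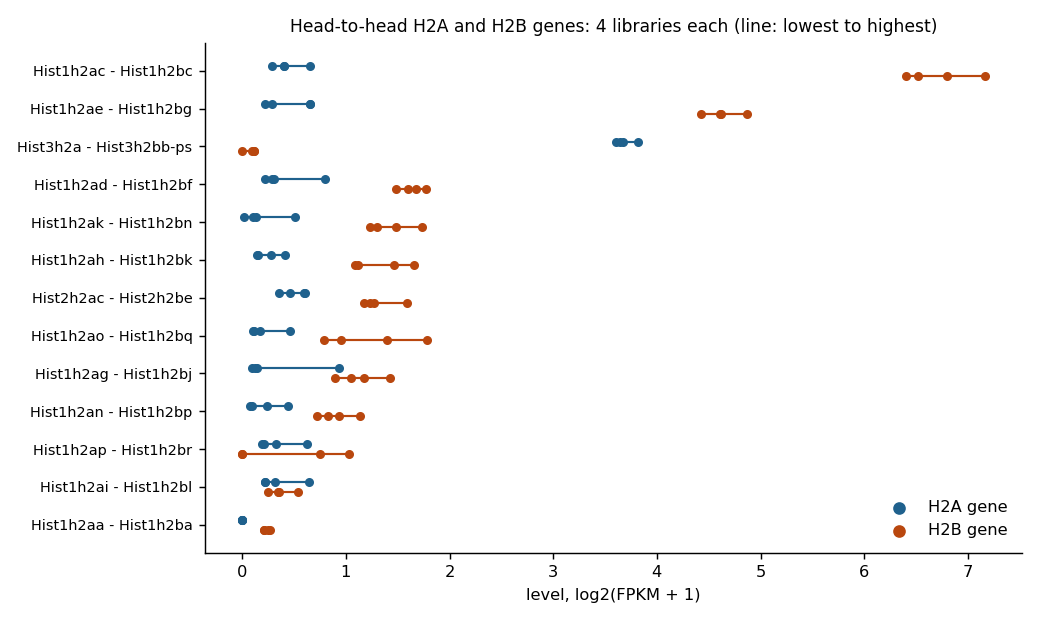
Levels of the H2A and H2B genes of the 13 head-to-head pairs as log2(FPKM + 1); each point is 1 of the 4 libraries and each line runs from the lowest to the highest. The H2B gene is the higher one in 9 pairs with no overlap, by most in Hist1h2ac and Hist1h2bc (means 0.362 and 107 FPKM).

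The start regions of these genes have shared letters, shown for Hist1h2bg, an abundant member, and Hist1h3c, one of the low genes highest in young injured cartilage. RefSeq sequences on GRCm38.p6, from 250 bases before to 50 after the start, were present for 62 members. Of these, 51 (82.3%) held CCAAT on either strand, against 33.8% of 32788 other promoters, and 24 (38.7%) held TATAAA on the gene's strand, against 7.53%. Capitals mark CCAAT, its reverse complement ATTGG, and TATAAA, and no matches overlap in the 150 bases printed.

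Hist1h2bg, chr13:23571250-23571399, plus strand: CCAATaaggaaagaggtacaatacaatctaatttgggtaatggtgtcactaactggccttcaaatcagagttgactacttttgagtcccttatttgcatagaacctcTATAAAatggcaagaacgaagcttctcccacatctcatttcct
Hist1h3c, chr13:23745522-23745671, minus strand: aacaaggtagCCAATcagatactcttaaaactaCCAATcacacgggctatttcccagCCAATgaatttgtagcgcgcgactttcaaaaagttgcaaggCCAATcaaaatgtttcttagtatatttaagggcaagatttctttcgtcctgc

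The printed stretch of Hist1h2bg held 1 CCAAT and 1 TATAAA, and that of Hist1h3c 4 CCAAT and no TATAAA. A match is a run of letters and says nothing of binding in these samples.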

How the data were processed

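The authors deposited FPKM for each gene in 4 libraries, 1 per group, from stranded TruSeq libraries of poly-T selected RNA, aligned to mm10. The submitters' processing notes name HISAT2 2.1.0, StringTie 1.3.4d, HISAT, STAR and SAMtools, with no role or order. The treatment of reads that match several copies is not given in the sources used here. FPKM were used as deposited. The log2 ratio of FPKM + 1 was computed for 4 comparisons over all 18181 genes above 0 in at least 1 library, and 2-fold was the threshold. With 1 library per group no test was possible. Sums are of FPKM over members. The members and gene lists were chosen with earlier results of these data known. Genes named by rule were members of mean 5 FPKM or more, the 2 highest of each type, the Hist3 and Hist4 genes, among members of mean 1 FPKM or more the 3 largest differences each way per comparison, and the 3 highest of each list; others were chosen after their values were seen. Of the 11 named RNAs without a tail, 6 were in the table. Stem-loops and shared words of 31 bases were computed from GENCODE transcripts. Depth is an estimate from 17308 genes with 1 transcript. The calculation was tested on simulated data. Analyses used Python 3.11.15 with pandas 2.3.3, numpy 2.4.6 and matplotlib 3.10.9. The alternatives were pseudocounts of 0.1 and 5, TPM rescaling, median-of-ratios scaling, quantile normalization, other thresholds, a level filter, a limit on shared words, and sums without the highest member or, chosen after the values were seen, without the Hist2h2aa copies.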

Additional observations from a re-analysis of the deposited data

Results flagged for a closer look

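For the 3 members below the log2 ratio with injury had opposite signs at the ages and reached 2-fold at one of them. Hist1h1c had log2 ratios with injury of -0.025 in the young and 1.44 in the adult pools, the first of which is close to 0. Hist1h4h had 0.11 and -1.31. Hist2h2aa2 had -4.86 and 0.75, and its level cannot be separated from that of its copy Hist2h2aa1, which had 0.05 and 0.74. With 1 library per group the difference between the ages was not tested for any of them.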

How the results depend on the processing

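Of 320 recomputed values of 48 results, 259 were within 1.5-fold of the reported one, with log2 ratios also on the same side of 2-fold. In all 23 values had another sign, and those that moved by no more than 1.5-fold are counted among the 259. Being among the 259 thus does not mean that a direction held. Counts of members at least 2-fold higher or lower are small and moved most. With 0.1 FPKM added, the members higher and lower numbered 19 and 2 for young injury, 8 and 4 for adult injury, 3 and 6 for adult against young sham, and for adult against young injured 21 were lower. With 5 FPKM added, 0 were higher for young injury, 0 lower for adult injury, 0 lower for adult against young sham, and for adult against young injured 1 was higher and 0 lower. TPM rescaling gave 6 higher for young injury and 2 higher and 2 lower for adult injury. Median-of-ratios scaling gave 0 higher for young injury, 2 lower for adult injury, 1 higher and 0 lower for adult against young sham and 1 lower for adult against young injured. Quantile normalization gave 0 higher for young injury, 2 lower for adult injury, 0 lower for adult against young sham and 1 lower for adult against young injured. Over the 28 members with under 50% shared words, 0 were higher and 0 lower for young injury, 0 lower for adult injury, and 1 higher and 1 lower for adult against young injured. At a 1.5-fold threshold 8 were higher for young injury, 4 higher and 3 lower for adult injury, 2 higher and 3 lower for adult against young sham, and 8 lower for adult against young injured. At 3-fold 0 were higher for young injury, 0 higher and 0 lower for adult injury, 0 lower for adult against young sham, and 1 higher and 0 lower for adult against young injured. Without the Hist2h2aa copies 0 were lower for young injury and 1 was higher for adult against young injured, and the log2 ratio of the H2A sum became 0.35 for young injury, -0.11 for adult injury, 0.13 for adult against young sham and -0.32 for adult against young injured. Without its highest member, that of H2A was -1.13 for young injury and 1.09 for adult against young injured, that of H1, with 1 FPKM added to each sum, was 0.32 for adult injury and -0.11 for adult against young injured, and that of H4 was -1.03 for adult against young injured. The H1 ratio for adult against young injured was 1.01 with 0.1 FPKM added, 1.17 after TPM rescaling, and 1.05 after both median-of-ratios scaling and quantile normalization.

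No paired analysis was possible because each group is 1 pool. No replicate was left out for the same reason. Most members rest on a few fragments, so a difference in 1 of them was often not detectable at this depth. Adult age and surgery are given differently in the labels and the methods, and the adult sham pool is labelled with several days.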
